A study of Homo sapiens with 8 samples.

Results

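The genes described here regulate or carry out the epithelial-mesenchymal transition (EMT), and they were read in senescent and in untreated HepG2 cells. They were taken from a list of 10 symbols: SNAI1, SNAI2, ZEB1, ZEB2, TWIST1, ESRP1, ESRP2, GRHL2, CDH2 and FN1. Of these, 9 were paired with a probe set of their own and were measured, among 18404 genes in all, and ESRP1 was not analysed here. In EMT, epithelial cells lose their junctions and polarity and take on a migratory, matrix-producing state. SNAI, ZEB and TWIST transcription factors drive the change by repressing junction genes such as CDH1, which encodes E-cadherin, while GRHL2 and the ESRP splicing factors hold the epithelial state. A gain of N-cadherin (CDH2) and fibronectin (FN1) is a common readout in carcinoma, but liver cells are unusual in that hepatocytes themselves make both proteins.

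HepG2 is an established human liver tumour cell line that still makes many hepatocyte products, and 8 single-channel arrays of it were read. The 4 arrays titled Senescent came from HepG2 cells given hydrogen peroxide (H2O2) at 0.5 mM for 60 minutes, and the 4 titled Normal from untreated HepG2 cells given medium alone. Both groups were then washed and cultured, and the cells were examined for a senescent phenotype after 5 days. When RNA was taken is not stated separately. Each group has 4 biological replicates according to the study design, and that small number bounds the precision.

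All levels are log2 expression values, all differences are H2O2 minus untreated on the log2 scale with their standard error (SE), and n = 4 arrays per group throughout. Adjusted p-values come from limma with Benjamini-Hochberg adjustment over all 18404 genes, and a gene was called at an adjusted p under 0.05. Median log2 values over all probe sets lay between 6.87 and 6.92 on the H2O2 arrays and between 6.85 and 6.93 on the untreated arrays. CDKN1A, the p21 cell cycle inhibitor that marks arrested cells, was at 10.89 ± 0.072 in H2O2 cells and 8.53 ± 0.062 in untreated cells (SD). All 13 measured hepatocyte markers lay above the array median on every array. In H2O2 cells 9 of them were called lower and 1 higher, against 14.8% lower and 19.2% higher over all genes. Without H2O2 replicate 1 or 2 or untreated replicate 3 or 4, 0 were called higher. The part of this fall in the results below was not tested. Of the markers of cells that the line should not hold, PTPRC, the pan-leukocyte antigen, averaged 4.09 in H2O2 cells and 4.23 in untreated cells. DCN, a fibroblast proteoglycan, averaged 4.23 in H2O2 cells and 4.30 in untreated cells, and both genes lay below the median of every array. Not all such markers did: it held for 5 of 9 leukocyte, 10 of 13 fibroblast and 7 of 10 endothelial markers. Differences ran from -0.14 to 0.80 among the leukocyte markers and from -1.15 to 0.41 among the fibroblast markers. Among the endothelial markers they ran from -0.25 to 1.67. Of the fibroblast markers, COL1A1 lay above the median on all 8 arrays and was called higher (0.41 ± 0.076). PDGFRB averaged 8.13 in untreated cells and was called lower.

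The EMT regulators moved little and in both directions. SNAI2 rose 1.25-fold and SNAI1 1.14-fold, ZEB1 fell 1.21-fold, and the other 6 genes did not pass the test. In bulk RNA, a change in some of the cells and a smaller change in all of them cannot be told apart. The count of 3 called genes among 9 is 33.3%, and over all genes 34.0% were called, so the share called among the EMT regulators was that of the array as a whole. Of all genes 19.2% were called higher and 14.8% lower. The groups did not overlap for 3 of the 9 genes, SNAI1, ZEB1 and CDH2, against 33.7% of all genes. The median difference over the 9 genes was -0.064, and over all genes it was -0.022. The signs were mixed, with 4 positive and 5 negative differences.

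**Figure D1:**
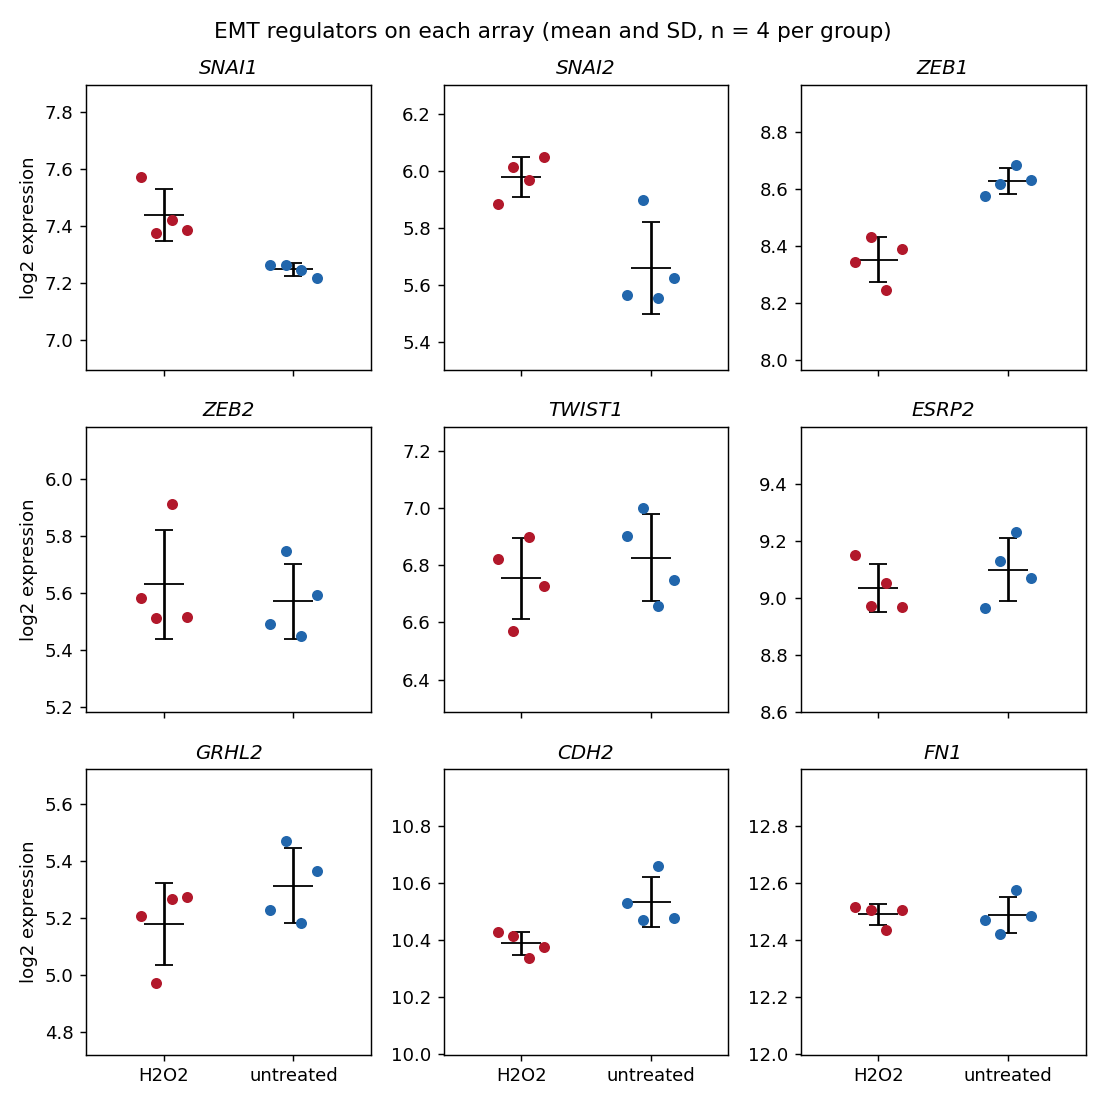
Log2 expression of the 9 measured EMT regulators on each array, with H2O2 arrays in red on the left of each panel and untreated arrays in blue on the right. Points are single arrays in replicate order, and black marks are the mean and SD of 4 arrays. Panels differ in the level they are centred on, and the groups are apart only for SNAI1, ZEB1 and CDH2.

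The SNAI family encodes zinc finger repressors that bind E-box sequences in the promoters of CDH1 and other junction genes. SNAI1, also called Snail, starts EMT in many carcinoma models, and the SNAI1 protein is short-lived. SNAI1 read 7.57, 7.38, 7.42 and 7.38 in H2O2 replicates 1 to 4, against 7.26, 7.26, 7.25 and 7.22 in untreated replicates 1 to 4. The groups did not overlap, and a gap of 0.11 lay between the lowest H2O2 and the highest untreated array. The untreated arrays spanned 0.047 and the H2O2 arrays 0.20, with H2O2 replicate 1 above the other treated arrays. SNAI1 was higher in H2O2 cells by 0.19 ± 0.067 (limma adjusted p = 0.0398, 95% interval 0.048 to 0.33). This call was narrow. Without H2O2 replicate 1 the difference was 0.15 (limma adjusted p = 0.149), and it also missed the threshold without H2O2 replicate 4 or without any 1 of the 4 untreated arrays, at adjusted p-values of 0.0529 to 0.0887. Centring each array on its median gave an adjusted p of 0.0619, and in all the SNAI1 call was lost in 10 of 17 alternative fits while the sign stayed positive in all 17.

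SNAI2, or Slug, is the second member of the family and is also known from the migration of neural crest cells. SNAI2 read 5.89, 6.01, 5.97 and 6.05 in H2O2 replicates 1 to 4. In untreated replicates 1 to 4 it read 5.56, 5.90, 5.56 and 5.63. The groups overlapped only through untreated replicate 2, which lay 0.012 above the lowest H2O2 array. SNAI2 rose by 0.32 ± 0.083 (limma adjusted p = 0.00845, 95% interval 0.14 to 0.50), the largest difference of the 9 genes. It stayed called in all 16 alternative fits that kept the gene, and leaving out single arrays moved the difference between 0.28 and 0.40. An exact permutation test over the 70 splits of the arrays gave a two-sided p of 0.0571 for this gene, where the smallest that 4 against 4 arrays allow is 0.0286. All 8 values lay below the array median, where a signal cannot be told from background without detection calls, so the fold is uncertain.

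The ZEB factors have a pair of zinc finger clusters and repress E-cadherin, polarity genes and the miR-200 microRNAs. ZEB1 read 8.34, 8.43, 8.24 and 8.39 in H2O2 replicates 1 to 4, against 8.57, 8.62, 8.68 and 8.63 in untreated replicates 1 to 4. All H2O2 arrays were below all untreated arrays, with a gap of 0.14 between the groups. ZEB1 fell by 0.27 ± 0.066 on the log2 scale (limma adjusted p = 0.00511, 95% interval -0.42 to -0.13), and its exact permutation p was the smallest possible, 0.0286. The call was kept in all 17 alternative fits, at differences from -0.30 to -0.23. ZEB1 lay above the median of each of the 8 arrays, so its measurement does not share the limit of SNAI2. ZEB1 and SNAI2 were thus called in opposite directions on the same arrays.

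ZEB2, also called SIP1, is the paralog of ZEB1. The probe set used read 5.58, 5.51, 5.91 and 5.52 in H2O2 replicates 1 to 4 and 5.49, 5.75, 5.45 and 5.59 in untreated replicates 1 to 4. The groups overlapped over most of their range, and H2O2 replicate 3 was the highest of the 8 arrays. The difference was 0.060 ± 0.098 (limma adjusted p = 0.693, 95% interval -0.15 to 0.27), and its sign turned in 2 of 16 alternative fits. A second ZEB2 probe set, annotated to another transcript record, averaged 3.67 ± 0.11 on H2O2 and 3.81 ± 0.028 on untreated arrays (SD). Its difference was -0.15 ± 0.070 (limma over all probe sets, adjusted p = 0.186), opposite in sign to that of the first and also not called. Both ZEB2 probe sets lay below the array median on every array.

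The sequence before the first annotated start of each ZEB gene is shown because SNAI and ZEB factors bind the E-box CAGGTG, and ZEB1 was the member that fell. Each stretch holds the 250 bases before the most upstream RefSeq start (GRCh38.p14), in lower case with any CAGGTG or its reverse complement CACCTG in capitals.
ZEB1, chr10:31318167-31318416, plus strand: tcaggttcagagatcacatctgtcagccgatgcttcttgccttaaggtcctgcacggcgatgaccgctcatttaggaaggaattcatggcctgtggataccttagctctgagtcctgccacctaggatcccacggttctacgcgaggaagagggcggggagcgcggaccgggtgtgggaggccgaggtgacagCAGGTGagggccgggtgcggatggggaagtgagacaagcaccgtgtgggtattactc
ZEB2, chr2:144520120-144520369, minus strand: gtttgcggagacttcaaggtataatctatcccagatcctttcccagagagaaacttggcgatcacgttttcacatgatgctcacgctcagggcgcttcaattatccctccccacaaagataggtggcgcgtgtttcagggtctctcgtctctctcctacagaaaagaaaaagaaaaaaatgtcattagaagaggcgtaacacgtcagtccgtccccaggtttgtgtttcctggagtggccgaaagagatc
The ZEB1 stretch held 1 match, at -57 to -52 from the start on the plus strand of the gene, and the ZEB2 stretch held 0. Of 35116 such windows before RefSeq starts, 17.5% held a match on either strand, so a match is common and describes letters, not binding. RefSeq gives ZEB1 7 starts in the table used and ZEB2 1. Promoter entries matched 4 of the 9 genes, and the windows of the other 2, CDH2 and FN1, held 0 matches each.

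The miR-200 microRNAs bind ZEB1 and ZEB2 transcripts and lower their output, and ZEB factors repress the miR-200 genes in turn. Their mature RefSeq sequences are shown because shared seeds sort them into 2 groups that read different sites in ZEB transcripts. Bases 2 to 8, the seed, are in capitals.
hsa-miR-200b-3p: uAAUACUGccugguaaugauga
hsa-miR-200c-3p: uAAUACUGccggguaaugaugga
hsa-miR-429: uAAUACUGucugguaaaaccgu
hsa-miR-200a-3p: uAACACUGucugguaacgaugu
hsa-miR-141-3p: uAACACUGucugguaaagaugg
The first 3 share the seed AAUACUG and the other 2 share AACACUG. The arrays read the primary or precursor RNA of these genes, not the mature strand. None of the 5 was called, and their differences ran from -0.15 ± 0.095 for MIR200B (limma adjusted p = 0.260) to 0.054 ± 0.10 for MIR141 (limma adjusted p = 0.740). MIR200B exceeded the array median on 0 H2O2 and 2 untreated arrays, and the other 4 lay below it on every array. Among all 11 EMT microRNA genes measured, 1 was called higher and 1 lower: MIR21 at 1.03 ± 0.16 and MIR34A at -0.24 ± 0.082, whose call was lost in 8 of 16 alternative fits, 6 of them without a single array (limma adjusted p = 0.0733 to 0.0913; H2O2 replicates 1, 2 and 4, untreated replicates 1, 3 and 4). The number of the 11 called lower was 0 without any 1 of H2O2 replicates 1, 2 and 4 and untreated replicates 1 and 4, and stayed at 1 without untreated replicate 3. MIR34A lay below the array median on every array. The share called among the 11 was 18.2%, against 34.0% over all genes.

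TWIST1 is a basic helix-loop-helix factor that drives EMT in development and metastasis and can override oncogene-induced senescence. TWIST1 read 6.82, 6.57, 6.90 and 6.73 in H2O2 replicates 1 to 4. In untreated replicates 1 to 4 it read 6.90, 7.00, 6.66 and 6.75. The ranges overlapped over most of their width, and TWIST1 exceeded the array median on 0 H2O2 and 2 untreated arrays. The difference was -0.073 ± 0.091 (limma adjusted p = 0.602), with a 95% interval of -0.27 to 0.12.

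ESRP2 and GRHL2 stand on the epithelial side. ESRP2 is an RNA-binding protein that sets epithelial exon choices in transcripts such as FGFR2, CD44, ENAH and CTNND1, and it is also a splicing regulator of adult mouse hepatocytes. ESRP2 read 9.15, 8.97, 9.05 and 8.97 in H2O2 replicates 1 to 4, against 8.97, 9.13, 9.23 and 9.07 in untreated replicates 1 to 4. It lay above the array median on all 8 arrays and the groups overlapped. The difference was -0.064 ± 0.075 (limma adjusted p = 0.571, 95% interval -0.23 to 0.10). A summed level per gene does not show which exons were used.

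GRHL2 is a grainyhead-like transcription factor that keeps up CDH1 and claudin genes and opposes ZEB1. GRHL2 read 5.20, 4.97, 5.27 and 5.27 in H2O2 replicates 1 to 4. Untreated replicates 1 to 4 read 5.23, 5.47, 5.18 and 5.37. H2O2 replicate 2 was the lowest of the 8 arrays, and the rest of the values interleaved. The difference was -0.13 ± 0.088 (limma adjusted p = 0.281, 95% interval -0.32 to 0.056). All 8 values were below the array median.

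CDH2 and FN1 are products rather than regulators of the transition. CDH2 encodes N-cadherin, a calcium-dependent adhesion protein of mesenchymal and neural cells that hepatocytes carry beside E-cadherin. CDH2 read 10.43, 10.41, 10.34 and 10.38 in H2O2 replicates 1 to 4, against 10.53, 10.47, 10.66 and 10.48 in untreated replicates 1 to 4. Every H2O2 array was below every untreated array, though the gap was only 0.043. The difference was -0.15 ± 0.067 (limma adjusted p = 0.117, 95% interval -0.29 to -0.0011). The exact permutation p was 0.0286, the smallest possible and not adjusted for the number of genes, and CDH2 was called in 0 of 17 alternative fits.

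FN1 encodes fibronectin, the matrix glycoprotein that hepatocytes also secrete into plasma. FN1 read 12.52, 12.51, 12.44 and 12.51 in H2O2 replicates 1 to 4 and 12.47, 12.42, 12.58 and 12.49 in untreated replicates 1 to 4. The difference was 0.0023 ± 0.064, with a 95% interval of -0.13 to 0.14 (limma adjusted p = 0.984). The interval leaves out changes as large as that fitted for SNAI1 in either direction. The array's highest value was 13.73 or more on every array, and whether the FN1 probe set approaches saturation was not tested. H2O2 replicate 3 lay below the other 3 treated arrays, which sat between 12.51 and 12.52.

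**Figure D2:**
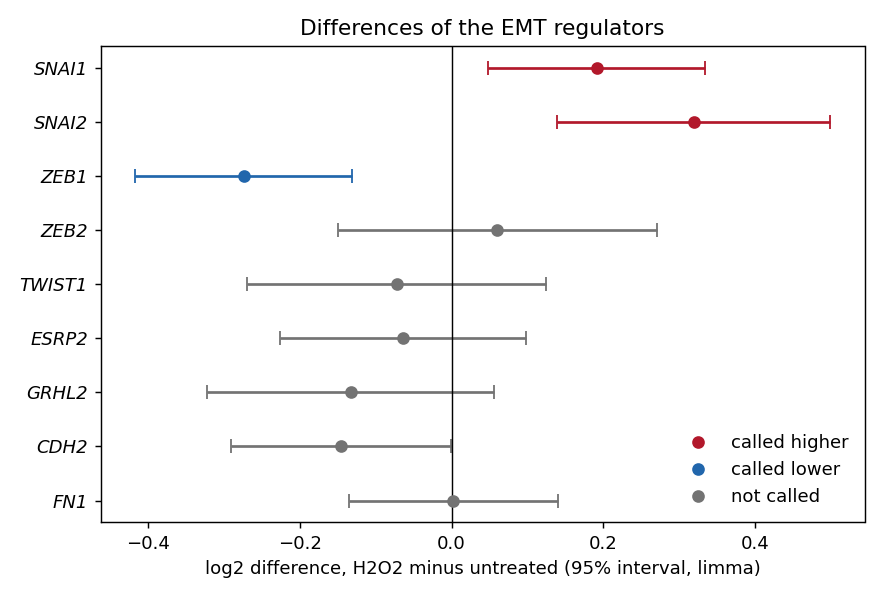
Log2 difference, H2O2 minus untreated, of each measured EMT regulator with its 95% interval from limma (n = 4 arrays per group). Red points were called higher, the blue point was called lower and grey points were not called. The intervals of SNAI1, SNAI2 and ZEB1 clear 0 and were called, and that of CDH2 ends at -0.0011 without a call after adjustment.

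Within a group, several genes shared their order over the arrays. Among untreated arrays, replicate 3 was the highest for ZEB1, ESRP2, CDH2 and FN1 and the lowest for SNAI2, ZEB2, TWIST1 and GRHL2. Untreated replicate 2 was the highest for SNAI2, ZEB2, TWIST1 and GRHL2 and the lowest for CDH2 and FN1. The first 4 of these genes lay above the array median on every array, and SNAI2, ZEB2 and GRHL2 below it. Untreated replicate 3 also had the widest interquartile range of the untreated arrays over all probe sets, 3.30, against 3.19 to 3.24 for the other 3. The part of this array-wide spread in the order of the genes was not tested. Among H2O2 arrays, replicate 1 was the highest for SNAI1, ESRP2, CDH2 and FN1 and replicate 2 the lowest for SNAI1, ZEB2, TWIST1 and GRHL2.

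The repressed side of the SNAI and ZEB programme was read in a list of 25 measured epithelial polarity genes. In it 7 were called higher and 2 lower (36.0%, median difference 0.079), near the share over all genes. Over all genes 34.0% were called, 19.2% higher and 14.8% lower, the background for this and the list counts that follow. CDH1, the E-cadherin gene that SNAI1, SNAI2 and ZEB1 repress, read 8.33, 8.39, 8.52 and 8.46 in H2O2 replicates 1 to 4, against 7.37, 7.15, 8.15 and 7.80 in untreated replicates 1 to 4. All H2O2 arrays were above all untreated arrays, which spread far more widely, and CDH1 rose by 0.81 ± 0.16 (limma adjusted p = 0.00145). CDH1 was thus higher on the same arrays on which ZEB1 was lower and SNAI2 and, by a narrow call, SNAI1 were higher. The CDH1 call was kept in all 17 alternative fits. SPINT1, an inhibitor of membrane serine proteases, rose by 1.65 ± 0.082 and the tight junction claudin CLDN4 by 0.54 ± 0.083. MAL2, a protein of apical transport, fell by 0.40 ± 0.065 and the sorting adaptor subunit AP1M2 by 0.30 ± 0.092. AP1M2 exceeded the array median on 0 H2O2 arrays and 1 untreated array. The AP1M2 call was lost without H2O2 replicate 4 (limma adjusted p = 0.0808) and without untreated replicate 2 (limma adjusted p = 0.0722), which left 1 gene called lower. EPCAM, an epithelial surface antigen, differed by 0.0065 ± 0.093 (limma adjusted p = 0.968).

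On the mesenchymal side, 14 of 33 measured genes were called higher and 2 lower (48.5%, median difference 0.11; 4 lower without H2O2 replicate 3), without VIM among them. VIM, the intermediate filament used beside CDH2 and FN1 as a mesenchymal marker, differed by 0.11 ± 0.13 (limma adjusted p = 0.549) and lay below the array median on every array. The genes that rose most were MMP3 (3.49 ± 0.086) and MMP2 (1.54 ± 0.097), matrix proteases, and ACTA2, smooth muscle actin (1.50 ± 0.072). MMP3 and MMP2 each exceeded the array median on 4 H2O2 and 0 untreated arrays, so the size of their rise is uncertain. The collagen cross-linker LOX fell by 3.24 ± 0.11 and the growth factor receptor PDGFRB by 1.15 ± 0.088. Fibroblast and stellate cell markers had 1 of 13 genes called higher and 1 lower (2 lower without H2O2 replicate 3 or untreated replicate 1 or 3), with 10 of the 13 below the array median on all arrays. Their mean level over genes lay between 5.75 and 5.97 on H2O2 arrays and between 5.90 and 5.95 on untreated arrays. Endothelial markers had 1 of 10 higher and 1 lower (0 lower without H2O2 replicate 1 or untreated replicate 4, 3 without H2O2 replicate 3), and leukocyte and macrophage markers 2 of 9 higher and 0 lower by limma (0 lower at an unadjusted p under 0.05).

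N-cadherin works with the other cadherins and with catenins, which tie them to actin. Of 28 other cadherin and catenin genes 7 were called higher and 1 lower (28.6% against 34.0% of all genes, median 0.051). The largest rise of the 7 was that of CDH1, which is also counted among the polarity genes above. JUP, or plakoglobin, which binds both E- and N-cadherin, rose by 0.78 ± 0.088 and CDH10 by 0.73 ± 0.088, with CDH10 below the array median on all 8 arrays. The 1 that fell was the endothelial cadherin CDH5 (-0.25 ± 0.073), a call lost without H2O2 replicate 1 (limma adjusted p = 0.0713) and without untreated replicate 4 (limma adjusted p = 0.0518). CDH5 exceeded the array median on 0 H2O2 and 3 untreated arrays. The number called lower was 0 without H2O2 replicate 1, 3 without H2O2 replicate 3 and 2 without untreated replicate 2 or 3.

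FN1 itself was not called, and of 23 genes for its receptors and its assembly 12 were called higher and 5 lower (73.9%, median 0.25). ITGA5 and ITGB1, the 2 chains of the main fibronectin receptor, rose by 0.90 ± 0.089 and 0.68 ± 0.075. ITGA5 read 7.16, 7.03, 7.17 and 7.28 in H2O2 replicates 1 to 4, against 6.37, 6.20, 6.04 and 6.42 in untreated replicates 1 to 4. It exceeded the array median on 4 H2O2 and 0 untreated arrays. ITGAV, the alpha chain of several other fibronectin receptors, rose by 0.96 ± 0.067, and TGM2, a transglutaminase that cross-links fibronectin, by 0.94 ± 0.14. FERMT2, an integrin activator, fell by 0.54 ± 0.090, the matrix protein FBLN1 by 0.51 ± 0.077 and the proteoglycan SDC2 by 0.38 ± 0.061.

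**Figure D3:**
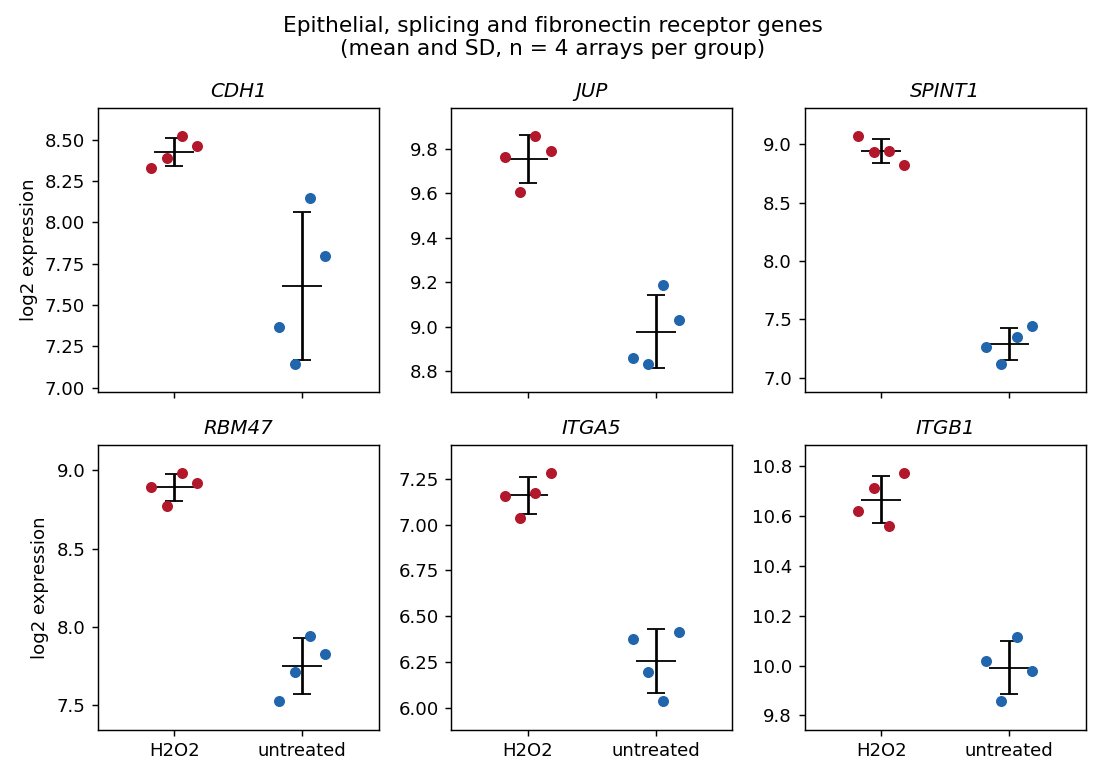
Log2 expression on each array of CDH1 and JUP (adherens junction), SPINT1 (epithelial protease inhibitor), RBM47 (splicing factor), ITGA5 and ITGB1 (fibronectin receptor), with H2O2 arrays in red on the left and untreated arrays in blue on the right. Points are single arrays and black marks the mean and SD of 4 arrays. In each panel all H2O2 arrays lie above all untreated arrays, and the untreated CDH1 values run between 7.15 and 8.15.

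Among the splicing factors and targets that surround ESRP2, 4 of 17 measured genes were called higher and 5 lower (52.9%, median 0.14; 7 higher without untreated replicate 3). RBM47, an RNA-binding protein that favours epithelial exon choices, read 8.89, 8.77, 8.98 and 8.92 in H2O2 replicates 1 to 4, against 7.52, 7.71, 7.94 and 7.82 in untreated replicates 1 to 4. It rose by 1.14 ± 0.089 (limma adjusted p = 3.37e-07) with no overlap, while ESRP2 in the same samples was not called. ENAH, an actin regulator whose exons ESRP proteins choose, rose by 0.60 ± 0.072 and MBNL3 by 0.32 ± 0.077. FGFR2, a receptor with ESRP-dependent isoforms, fell by 0.46 ± 0.075 but lay below the array median on every array. HNRNPM, which favours mesenchymal exon choices, fell by 0.37 ± 0.073 and PTBP1 by 0.35 ± 0.063.

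Beside SNAI, ZEB and TWIST1, 15 other EMT transcription factors were measured. Of these, 4 were called higher and 0 lower by limma (26.7% against 34.0% of all genes, median -0.062). At an unadjusted p under 0.05 the number lower was also 0, and 2 were called lower without untreated replicate 3. ETS1 rose by 1.18 ± 0.077, SOX4 by 0.91 ± 0.092 and the AP-1 subunit FOSL1 by 0.43 ± 0.068. ETS1 exceeded the array median on only 1 H2O2 array and on 0 untreated arrays. Beside GRHL2, 3 of 11 other epithelial transcription factors were called higher and 1 lower (36.4% against 34.0% of all genes, median 0.020). GRHL3, a relative of GRHL2, rose by 0.38 ± 0.080 below the array median, KLF5 by 0.88 ± 0.067 and ELF5 by 0.98 ± 0.089. ELF3 fell by 0.44 ± 0.095. ELF5 exceeded the array median on 4 H2O2 and 0 untreated arrays. OVOL1 (-0.092 ± 0.097) and OVOL2 (0.0018 ± 0.081), which oppose ZEB1, were not called and lay below the array median on every array. Of 7 measured hepatocyte factors listed here as opposing EMT, 4 were called lower and 1 higher (71.4%, median -0.26). FOXA2 (-0.54 ± 0.067), ONECUT1 (-0.52 ± 0.065), CEBPA (-0.45 ± 0.077) and ONECUT2 fell, and NR5A2 rose by 0.50 ± 0.11. NR5A2 exceeded the array median on 2 H2O2 and 0 untreated arrays. Whether each listed factor opposes EMT in these cells was not tested.

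The SNAI and ZEB factors are induced by TGF-beta and other signals, work through corepressors and are controlled as proteins. TGF-beta and other EMT-inducing signals had 16 of 33 genes called higher and 2 lower (54.5%, median 0.25; 1 lower without H2O2 replicate 1 or 4 or untreated replicate 3 or 4). LTBP1, which stores latent TGF-beta, rose by 1.58 ± 0.076, EGFR by 1.08 ± 0.089 and the cytokine IL11 by 0.97 ± 0.078. The signal transducer SMAD4 fell by 0.25 ± 0.064. LTBP1 exceeded the array median on 4 H2O2 and 0 untreated arrays. TGFB2 was not called (0.10 ± 0.078, limma adjusted p = 0.352) and lay below the array median on every array. Corepressors of SNAI and ZEB had 2 of 16 genes called higher and 9 lower (68.8%, median -0.23; 1 higher without H2O2 replicate 4 or untreated replicate 1, 2 or 4), among them the histone methyltransferases EZH2 (-0.73 ± 0.091) and SUV39H1 (-0.50 ± 0.065) and the scaffold SIN3A (-0.45 ± 0.068). The 2 corepressors called higher were LIMD1 (0.45 ± 0.080) and SMARCA4 (0.25 ± 0.079), and the SMARCA4 call was lost in 5 of 17 alternative fits. CTBP1, the classical ZEB1 corepressor, differed by -0.048 ± 0.064 (limma adjusted p = 0.623). In the list of SNAI protein turnover and modification 4 of 15 were called higher and 3 lower (46.7%, median 0.065). MDM2, which helps degrade SNAI2 with p53, rose by 0.77 ± 0.065, and GSK3B, the kinase that marks SNAI1 for degradation, by 0.41 ± 0.075. CTDSP1, a phosphatase that stabilises SNAI1, fell by 0.68 ± 0.064. In the same list FBXW7 rose by 0.55 ± 0.077 and USP1 fell by 0.93 ± 0.11, the largest change of the list. FBXO11 fell by 0.21 ± 0.069, a call lost in 8 of 17 alternative fits. These are transcript levels, and SNAI protein was not measured.

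**Figure D4:**
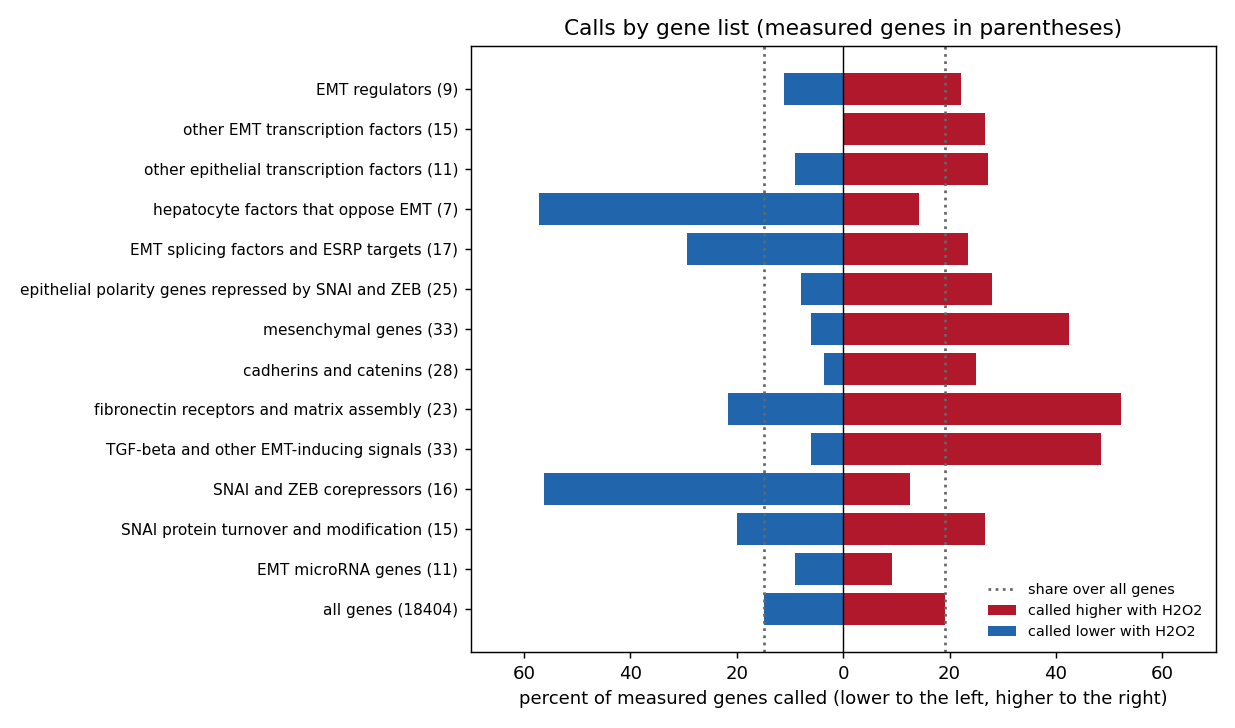
Percent of the measured genes of each list that were called higher (red, to the right) or lower (blue, to the left) in H2O2 cells, with the number measured in parentheses. The hepatocyte, fibroblast, leukocyte and endothelial marker lists are not drawn, and a bar for all genes is included. Dotted lines mark the shares over all genes, 19.2% higher and 14.8% lower. The EMT regulators lie close to both lines, and the fibronectin receptor and TGF-beta lists reach farther to the right.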

How the data were processed

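The table holds log2 expression values of 32321 probe sets on 8 whole-transcript arrays, as deposited by the authors. Per the labels' protocols, RNA was column-purified and converted to biotin-labelled sense cDNA. Their summarization and normalization are not given in the sources used here. The log2 scale is known only from the values. The submitters' processing notes name limma without a role. Platform annotation gave 19158 probe sets 1 symbol, 1388 several and 11775 none, and 18404 genes were tested. For 637 genes with several probe sets, the 1 with the highest mean was used. The fit was limma 3.58.1 in R 4.3.3 with 1 mean per group, empirical Bayes moderation and Benjamini-Hochberg adjustment over all genes, tested on simulated data. Alternatives changed the block, variance prior, scaling, dim-gene filter, probe choice, weights and arrays. No 2 arrays shared over 0.0062% identical values. All per-sample columns were used.

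The EMT regulators, the 16 other lists (276 of 299 listed genes measured) and the tests were chosen with earlier results of these data known. Some lists share genes, and a shared gene was counted in each, so the list counts are not independent. Named genes are the 9 members, 13 fixed genes where measured, and, from each list, at most 3 called rises and 3 called falls by size. CDKN2A (1.02 ± 0.11, called higher) and TGFBR3 (-0.24 ± 0.077, called lower) met this rule and are given only here. The TGFBR3 call was lost in 5 of 17 alternative fits. COL1A1, ONECUT2, DCN and PTPRC were named in addition, after their values were seen, as were the miR-200 genes. Sequences came from RefSeq tables of GRCh38.p14.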

Additional observations from a re-analysis of the deposited data

Results flagged for a closer look

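In a group of 4, a sample was singled out where its gap to the nearest other, as a share of the group's range, exceeded Dixon's 95% critical value. This held in 7 of 144 groups of the named genes, about the 1 in 20 that chance gives. Among the EMT regulators it held once, for FN1 on H2O2 replicate 3, at 12.44 against 12.51 to 12.52 on the other 3 arrays. H2O2 replicate 3 also stood apart for IL11 (8.33 against 8.06 to 8.07), and H2O2 replicate 4 for AP1M2 (6.39 against 6.65 to 6.70) and CTDSP1 (9.17 against 9.24 to 9.25). Untreated replicate 3 stood apart for SMAD4 (10.34 against 10.20 to 10.21) and GSK3B (9.57 against 9.35 to 9.36), and untreated replicate 4 for USP1 (8.19 against 8.44 to 8.48).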

How the results depend on the processing

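The rise of SNAI2 and the fall of ZEB1 kept their direction and call in each of the fits that held them. The number of EMT regulators called higher, 2, was 1 with the replicate block, with an intensity trend in the variance prior, with each array centred on its median, with genes under the lower quartile left out (which removes SNAI2, ZEB2 and GRHL2), and with every probe set in the fit. It was 1 to 2 when single arrays were left out, and the number called lower was 1 throughout. SNAI1, at 0.19, missed the threshold with the block (limma adjusted p = 0.0697), the trend (0.19, adjusted p = 0.0511), median centring (0.19, adjusted p = 0.0619) and every probe set in the fit (0.19, adjusted p = 0.0629), and leaving out single arrays gave 0.15 to 0.21. By the exact permutation test SNAI2, at 0.32, gave p = 0.0571 and CDH2, at -0.15, gave p = 0.0286. Pairing by replicate number was not seen, though 4 arrays per group are too few to exclude it. The deviations of same-numbered arrays correlated at -0.068, 0.060, -0.25 and 0.094, and 0 of 4 H2O2 arrays correlated best with their own number. With the block 3288 genes were called higher and 2470 lower, against 3527 and 2732. Array weights gave 4111 lower. Leaving out single arrays gave 3110 to 3686 higher and 2228 to 3069 lower. Of the other named genes 7 crossed the threshold in at least 1 alternative and 0 were called in the opposite direction, while VIM, OVOL2 and EPCAM, not called in any fit, had the other sign in 1, 5 and 4 fits. Of 544 list counts under alternatives, 50 differed by over 1.5 times. Signal over background was not available and limits the values below the array median.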
